A study of Mus musculus with 24 samples.

Results

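The genes described here encode the light-response cascade of cone photoreceptors. They were chosen by name: every row of the deposited gene table whose Ensembl identifier maps to Opn1sw, Opn1mw, Gnat2, Gnb3, Gngt2, Pde6c, Pde6h, Cnga3, Cngb3 or Arr3. All 10 were found among 33846 genes, and all 10 passed the filter on low counts, which left 16792 genes to test. Polyadenylated RNA came from retinal organoids grown from wild-type mouse embryonic stem cells, derived from Nrl-GFP transgenic mice or from another clone, R1; the labels do not tie a clone to a sample. The labels name 3 culture methods. In SSCi, whole organoids stayed intact in static suspension. In SSCd, optic cups cut out at day 10 (D10) were kept in static suspension, and in RWB such cups were kept in a rotating-wall bioreactor, a turning vessel that holds tissue afloat. All groups received N2 supplement, taurine, 9-cis retinal and IGF1, while serum, B27 and amino acids came from D18 in SSCd and RWB but from D26 in SSCi. There were 24 libraries in 9 groups: RWB at D18 (n = 2), D22 (n = 3) and D25 (n = 3), SSCd at D18, D22 and D28 (n = 3 each), and SSCi at D18 (n = 2), D25 (n = 2) and D32 (n = 3). The only days shared between methods are D18 for all of them, D22 for RWB and SSCd, and D25 for RWB and SSCi.

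In a cone, light isomerises the retinal bound to an opsin, the opsin activates a cone form of transducin, and transducin removes the inhibitory gamma subunit from a cone phosphodiesterase. The phosphodiesterase hydrolyses cyclic GMP, a channel held open by that nucleotide closes, and an arrestin then quenches the opsin. Rods run the same sequence of steps with proteins from other genes, and in the mouse retina rods far outnumber cones.

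Library totals lay between 13284632 and 21604446 estimated counts. Mitochondrially encoded genes took between 8.26% and 13.1% of counts in 4 libraries, namely replicate 1 of RWB D22, RWB D25, SSCd D18 and SSCd D22, and between 2.46% and 5.76% in the other 20. Photoreceptor identity was checked on genes outside the cascade: Crx (265 to 1839 CPM), Otx2 (353 to 1006 CPM) and the cone-associated receptors Thrb (39.0 to 250 CPM) and Rxrg (11.7 to 59.6 CPM) reached 1 CPM in all 24 libraries. The photoreceptor marker Rcvrn (0.226 to 398 CPM) reached 1 CPM in only 17 of them. Of 6 photoreceptor-like markers, 5 reached 1 CPM in every library of each D18 group. A summed list of mesenchyme-like markers reached 6196 CPM in 1 SSCi D18 library and at most 303 CPM in the groups other than SSCi D18. CPM are counts per 1e+06 after scaling of libraries, and a gene is called changed where its edgeR quasi-likelihood p, adjusted over all 16792 genes, is under 0.05. In bulk RNA, fewer cones and less RNA per cone cannot be told apart.

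Sequence before a RefSeq start site is shown for 3 members that followed 3 different courses over the cultures: the short-wave opsin Opn1sw, the transducin subunit Gnat2 and the arrestin Arr3. RefSeq promoters on GRCm38.p6 were on hand for 6 of the 10 members, and 250 bases before each start were searched on both strands for TAATCC (a homeobox site of the Crx and Otx2 type), TAATTA (a homeobox core that reads the same on both strands) and AGGTCA (a nuclear receptor half-site). None of these motifs contains another. Sequences run 5′ to 3′ on the gene's strand, with the matches in capitals.
Opn1sw: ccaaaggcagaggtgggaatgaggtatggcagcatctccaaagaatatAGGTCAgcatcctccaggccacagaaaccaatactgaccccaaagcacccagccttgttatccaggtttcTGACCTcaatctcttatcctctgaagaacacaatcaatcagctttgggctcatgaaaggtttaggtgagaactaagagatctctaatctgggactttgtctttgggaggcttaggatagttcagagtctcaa
Gnat2: ggacaatccccGGATTAggaaggagctctc
Arr3: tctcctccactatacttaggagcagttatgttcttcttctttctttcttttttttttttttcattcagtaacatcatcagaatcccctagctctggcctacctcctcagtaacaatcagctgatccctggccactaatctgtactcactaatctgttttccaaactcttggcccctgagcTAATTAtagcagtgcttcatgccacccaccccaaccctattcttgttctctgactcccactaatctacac
The Opn1sw stretch is chr6:29380514-29380763 on the minus strand and lies within an intron of a longer annotated transcript. It holds AGGTCA and, nearer the start, its reverse, TGACCT, at -132. The Gnat2 stretch is chr3:108093036-108093065 on the plus strand, the last 30 bases of its window, with GGATTA, the reverse of TAATCC, at -19. This stretch lies within the annotated Gnat2 gene, after the starts of the coding transcripts Gnat2-201 (108092789) and Gnat2-205 (108092880). The Arr3 stretch is chrX:100605247-100605496 on the plus strand, with TAATTA at -70. Among 32851 RefSeq promoters of this length, 6.25% held TAATCC, 4.84% held TAATTA and 14.0% held AGGTCA, so a single match is a description of these letters and no more. In the windows of Opn1mw, Pde6h and Cnga3 none of the 3 motifs was found. Of 6 rod counterparts with an entry, 4 held TAATCC (Gngt1, Cnga1, Cngb1 and Sag).

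Levels between genes were compared per transcript length, in TPM (transcripts per 1e+06). Gngt2 and Gnb3, the gamma and beta subunits of cone transducin, were far more abundant than the rest and made up between 83.5% and 97.4% of the members' summed TPM. Gngt2 led in 8 of 9 groups, and Gnb3 led in SSCi D32 (950 against 774 TPM). In RWB D22 the order of mean levels was Gngt2 (2628 TPM), Gnb3 (874), Gnat2 (169), Opn1sw (112), Cngb3 (39.4), Pde6c (27.7), Pde6h (11.3), Arr3 (8.10), Cnga3 (2.88) and Opn1mw (0.730). In SSCd D22 Gnat2 stood at 25.6 TPM, level with Pde6c (25.6 TPM) and below Opn1sw (46.6 TPM). On GRCm38 (GENCODE M21) the transducin genes lie at chr3:108092789-108101432 (Gnat2), chr6:124834240-124840275 (Gnb3) and chr11:95837216-95845734 (Gngt2), the opsin genes at chr6:29376671-29388468 (Opn1sw) and chrX:74127464-74150760 (Opn1mw), and Arr3 at chrX:100605497-100618493. The phosphodiesterase genes lie at chr19:38132781-38183958 (Pde6c) and chr6:136923832-136968865 (Pde6h), and the channel genes at chr1:37214434-37263384 (Cnga3) and chr4:19280850-19510623 (Cngb3). Neither abundant subunit is limited to cones: Gnb3 is also used by ON bipolar cells, and Gngt2 is also found in immune cells.

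The opsins stand first in the cascade. Opn1sw, the short-wave (blue to ultraviolet) cone opsin, measured 8.83 and 5.67 CPM in RWB D18, then 73.1, 166 and 89.4 CPM in RWB D22 and 64.2, 115 and 128 CPM in RWB D25. In SSCd it measured 19.2, 12.5 and 14.7 CPM at D18, 41.8, 71.9 and 24.4 CPM at D22, and 13.1, 15.9 and 4.17 CPM at D28. In SSCi it measured 4.55 and 3.84 CPM at D18, 101 and 94.7 CPM at D25, and 29, 8.60 and 22.8 CPM at D32. The 3 highest groups, RWB D22, RWB D25 and SSCi D25, overlapped one another and lay above all others apart from SSCd D22, whose top library reached into the range of RWB D25. From the lowest group mean (SSCi D18) to the highest (RWB D22) Opn1sw spanned 26.1-fold, the widest span of the members apart from Opn1mw, which was at 0 in a group.

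Opn1sw rose between D18 and D22 in RWB by 3.92 on the log2 scale (SE 0.63, edgeR adjusted p = 0.000528). In SSCd it rose over the same days by 1.57 (SE 0.48, edgeR adjusted p = 0.0358) and fell from D22 to D28 by 2.05 (SE 0.49, edgeR adjusted p = 0.0116). In SSCi it rose from D18 to D25 by 4.54 (SE 0.67, edgeR adjusted p = 0.000122) and fell from D25 to D32 by 2.28 (SE 0.52, edgeR adjusted p = 0.00805). The SSCi medium also changed between D25 and D32. At D25 its level in RWB, 102 ± 33.8 CPM (SD, n = 3), was near that in SSCi, 98.0 ± 4.79 CPM (n = 2), with a log2 difference of 0.06 (SE 0.52, edgeR adjusted p = 0.952).

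Opn1mw, the middle-wave opsin of mouse, was the scarcest member. It reached the filter's 0.652 CPM in 5 of 24 libraries, and only in SSCi D32 did every library reach it, at 1.96, 3.50 and 1.46 CPM. The other libraries above that level were replicate 1 of RWB D22 (0.990 CPM) and replicate 3 of RWB D25 (3.31 CPM), whose group mates held 0.159 and 0.125 CPM. SSCi D18 held no Opn1mw count in either library. Against a floor of 3 counts per library there, the SSCi D32 mean of 2.30 ± 1.06 CPM (SD, n = 3) was at least 14.9-fold higher (edgeR adjusted p = 0.0117), a call lost without either SSCi D18 library. Medium as well as day differed between these SSCi groups. Opn1mw took 19.9% of cone opsin TPM in SSCi D32 (9.57% to 40.2% over libraries) and at most 8.70% in any library of the other groups. Opn1sw overlaps Calu on the opposite strand at its end; whether the authors' estimates used strand is not given in the sources used here.

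**Figure D1:**
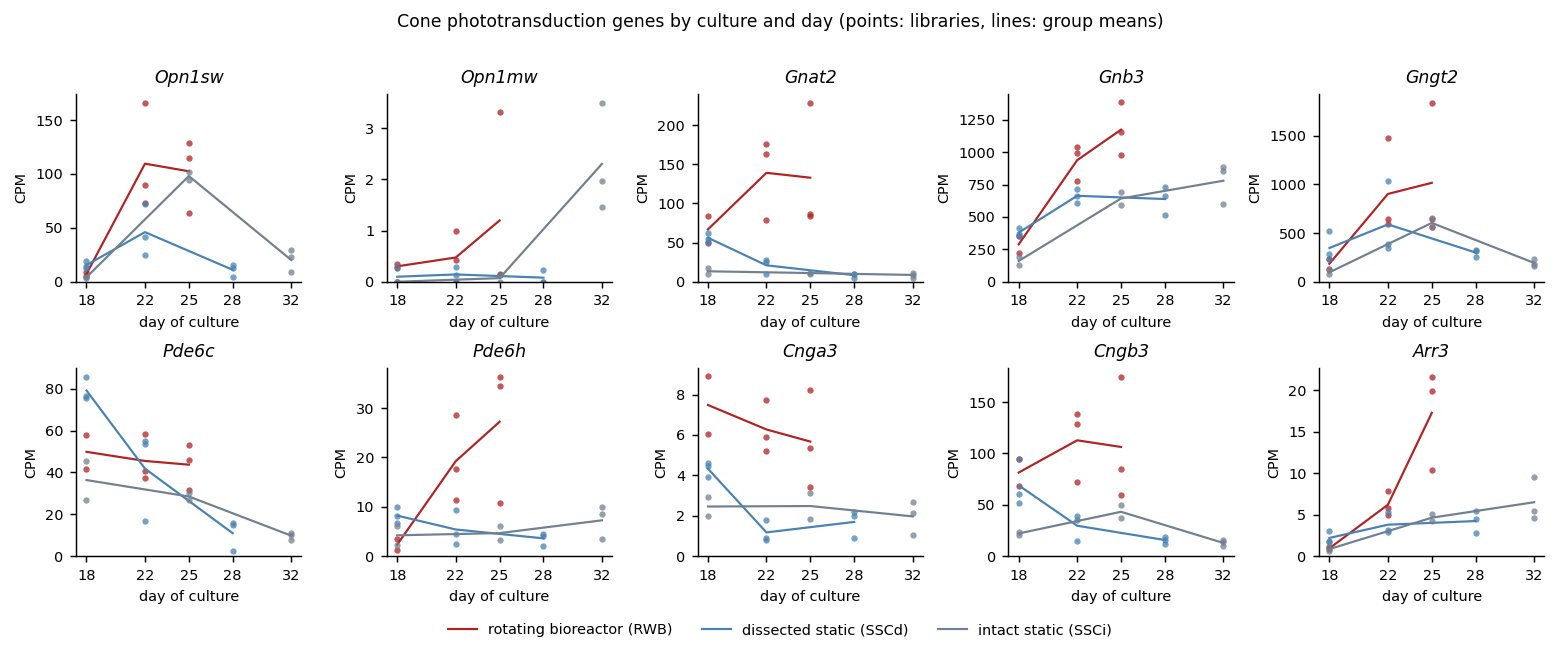
CPM of each cone phototransduction gene (vertical axis, linear from 0, its own scale in each panel) against day of culture, with a point per library and lines through the group means of RWB, SSCd and SSCi. Gnat2, Cnga3 and Cngb3 stayed high in RWB and declined in SSCd, whereas Opn1sw reached 109 CPM in RWB D22 and 98.0 CPM in SSCi D25 before lower values at the last static days.

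Transducin carries the signal from opsin to effector, and its alpha subunit is the part that binds and hydrolyses GTP. Gnat2 measured 84.0 and 49.7 CPM in RWB D18, 163, 175 and 78.7 CPM in RWB D22, and 228, 83.3 and 86.6 CPM in RWB D25. In SSCd it measured 62.5, 54.7 and 51.1 CPM at D18, 27.8, 25.6 and 9.41 CPM at D22, and 9.75, 10.3 and 4.99 CPM at D28. In SSCi all 7 libraries were low, between 5.31 and 17.0 CPM. The 3 RWB groups and SSCd D18 formed the upper part of the order, each overlapping the next, and no library of the other 5 groups reached them. The ratio of the highest group mean to the lowest was 16.7.

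Gnb3, the beta subunit, had its highest mean in RWB D25, at 1385, 978 and 1157 CPM, and its lowest in SSCi D18, at 130 and 190 CPM. Part of this estimate lay on an annotated retained-intron transcript, Gnb3-202. Per length it averaged 36.0% of the gene in RWB D25 and 60.8% in SSCi D18, beside 56.2% and 27.5% for the coding Gnb3-201. Gnb3 as a whole was the member most often called, higher in 8 of the 14 comparisons between groups and lower in none. Gnb3 rose from the first to the last day in each culture, by 2.03 in RWB (SE 0.26, edgeR adjusted p = 7.22e-06), 0.75 in SSCd (SE 0.21, edgeR adjusted p = 0.0099) and 2.28 in SSCi (SE 0.26, edgeR adjusted p = 1.34e-06), all on the log2 scale. The summed level of 10 bipolar-like markers was also higher at the last day, without overlap: it ranged over 121 to 159 CPM in RWB D18 and 220 to 272 CPM in RWB D25. In SSCd these sums were 70.4 to 141 CPM at D18 and 247 to 314 CPM at D28, and in SSCi 102 and 119 CPM at D18 and 343 to 363 CPM at D32. Their part in the Gnb3 result was not tested.

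Gngt2, the gamma subunit, rose in RWB from D18 to D22 by 2.29 (SE 0.57, edgeR adjusted p = 0.0133) and in SSCi from D18 to D25 by 2.64 (SE 0.61, edgeR adjusted p = 0.00467). Its values were uneven within groups. In RWB D25 it measured 1838, 565 and 642 CPM, in RWB D22 1471, 642 and 589 CPM, in SSCd D18 519, 236 and 284 CPM, and in SSCd D22 1030, 392 and 343 CPM. In each of these 4 groups the high library is replicate 1, the library of high mitochondrial share, at 2.00 to 3.05 times the mean of the other two. The rod gamma subunit Gngt1 stood 2.05 to 4.46 times higher in the same 4 libraries. The part of the mitochondrial share in these values was not tested; the RWB rise from D18 to D22 lost its call without replicate 1 of RWB D22 or replicate 2 of RWB D18 (1.74 to 2.80 over left-out libraries). Of 8 immune-like markers only Cd68 reached 1 CPM in every library of each group, and the list summed to between 2.82 and 16.4 CPM. Gngt2 overlaps Abi3 on the opposite strand.

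The phosphodiesterase subunits went separate ways. Pde6c, the catalytic subunit, was highest at the first day of dissected culture: 75.4, 76.4 and 85.6 CPM in SSCd D18, 53.4, 55.0 and 17.0 CPM in SSCd D22, and 15.6, 14.8 and 2.32 CPM in SSCd D28. In RWB it stayed between 31.7 and 58.2 CPM in all 8 libraries. In SSCi it measured 27.0 and 45.6 CPM at D18, 30 and 26.9 CPM at D25 and 10.2, 7.83 and 11.2 CPM at D32. Pde6c fell from D18 to the last day by 2.85 in SSCd (SE 0.49, edgeR adjusted p = 0.000147) and by 1.90 in SSCi (SE 0.52, edgeR adjusted p = 0.00678), and was not called in RWB at -0.19 (SE 0.51, edgeR adjusted p = 0.816). It was called lower in 3 comparisons and higher in none of the 14.

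Pde6h, the inhibitory gamma subunit, rose in RWB. It measured 3.52 and 1.15 CPM in RWB D18, 17.8, 28.7 and 11.3 CPM in RWB D22 and 34.6, 10.8 and 36.3 CPM in RWB D25. In the deposited gene values no library of the static groups exceeded 9.87 CPM, below every RWB D22 and D25 library. With transcript counts summed that separation was lost for RWB D22, whose lowest library held 5.42 CPM below the highest of SSCd D18 and of SSCi D32 (7.61 CPM). The rise from RWB D18 to D25 was 3.54 (SE 0.74, edgeR adjusted p = 0.00113). From the first to the last day Pde6h was not called in SSCd (-1.19, SE 0.58, edgeR adjusted p = 0.122) or in SSCi (0.79, SE 0.65, edgeR adjusted p = 0.367).

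The size of the Pde6h change depends on how its transcripts are combined. Deposited gene values were not plain sums of the deposited transcript counts. Over 7685 genes with several transcripts, the log2 ratio of gene value to rebuilt value varied over libraries. Its median SD was 0.0864 for plain sums and 0.0241 for sums of transcript counts each divided by transcript length. For Pde6h the gene value was 0.499 to 2.52 times the plain sum. With transcript counts summed, an alternative chosen after seeing the data, the rise from RWB D18 to D25 was 2.52 and was called, and Pde6h averaged 14.2 ± 4.84 CPM in RWB D25 and 2.47 ± 0.25 CPM in RWB D18 (SD, n = 3 and 2). Its SSCi rise from D18 to D32 was then called as well, at 1.27.

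Within Pde6h the annotated retained-intron transcript Pde6h-201 (2318 bases) averaged 2.23 CPM in RWB D22 and 4.71 CPM in RWB D25. It was at most 0.625 CPM in any static library and at 0 in RWB D18, SSCd D28 and SSCi D18. The short coding transcript Pde6h-204 (392 bases) averaged 2.05 CPM in RWB D22 and 0.514 CPM in SSCd D22. The long coding transcript Pde6h-202 (5940 bases) was near equal there, at 3.72 and 3.57 CPM. Per length, Pde6h-204 made up 75.4% of the gene in RWB D22 (71.0% to 80.7% over 3 libraries) and 59.3% in SSCd D22 (37.7% to 77.7%), ranges that overlap. Of these 3 transcripts only Pde6h-204 reaches into Arhgdib, a gene on the opposite strand, so its reads are uncertain where strand was not used.

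**Figure D2:**
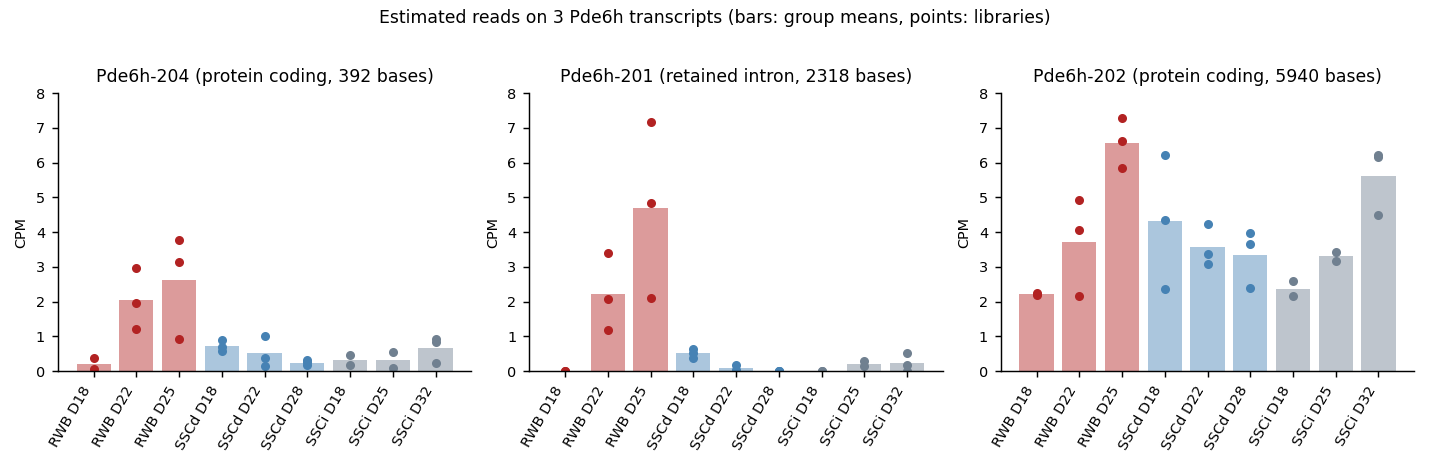
Estimated reads on 3 Pde6h transcripts in CPM (vertical axis, from 0), by group; bars are group means and points are libraries. Pde6h-201 reached 4.71 CPM in RWB D25 and lay at or near 0 in the static groups, whereas Pde6h-202 averaged between 2.23 and 6.58 CPM in every group.

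The cone channel is built from Cnga3 and Cngb3 subunits. Cngb3 measured 94.7 and 68.1 CPM in RWB D18, 138, 128 and 72.0 CPM in RWB D22 and 175, 84.8 and 59.5 CPM in RWB D25. In SSCd it measured 94.3, 60.6 and 51.8 CPM at D18, 39.3, 34.7 and 14.6 CPM at D22, and 15.8, 18.9 and 12.1 CPM at D28. SSCi libraries lay between 9.54 and 49.6 CPM. Its order of groups resembled that of Gnat2: all RWB groups and SSCd D18 on top, overlapping, and no other library within their range. A processed pseudogene, Gm11877, lies within Cngb3 on the same strand.

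Cnga3 was scarce, at 8.90 and 6.07 CPM in RWB D18, 5.18, 5.91 and 7.73 CPM in RWB D22 and 8.25, 3.43 and 5.34 CPM in RWB D25. In SSCd it measured 4.49, 3.90 and 4.60 CPM at D18, 0.819, 0.913 and 1.78 CPM at D22, and 0.913, 1.97 and 2.19 CPM at D28. SSCi libraries lay between 1.05 and 3.12 CPM. Every RWB library was above every SSCi library and above every SSCd D22 and D28 library.

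Arr3, the cone arrestin that ends the response, rose in RWB and in SSCi. It measured 1.06 and 0.810 CPM in RWB D18, 5.79, 7.82 and 4.99 CPM in RWB D22, and 10.4, 21.6 and 19.9 CPM in RWB D25. In SSCd it went from 3.02, 1.86 and 1.67 CPM at D18 to 2.80, 4.48 and 5.40 CPM at D28, a change of 0.95 that was not called (SE 0.38, edgeR adjusted p = 0.0614). In SSCi it went from 0.610 and 1.07 CPM at D18 to 9.49, 4.54 and 5.46 CPM at D32, a rise of 2.95 (SE 0.48, edgeR adjusted p = 7.99e-05). The RWB rise from D18 to D25 was 4.20 (SE 0.51, edgeR adjusted p = 4.42e-06), and all 3 RWB D25 libraries lay above every other library of the study. Arr3 was also the only member called between RWB D22 and D25 (1.48, SE 0.37, edgeR adjusted p = 0.0230), where 5.2% of all genes were called and 1.97% were higher. That call was lost without RWB D22 replicate 1 or 3 or RWB D25 replicate 2 or 3 (1.29 to 1.71).

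Rotation was compared with static culture of the same dissected optic cups at D22, under the same medium. Gnat2 averaged 139 ± 52.6 CPM under rotation and 20.9 ± 10.0 CPM without it (SD, n = 3 each), 2.73 higher on the log2 scale (SE 0.46, edgeR adjusted p = 0.00375). The channel subunits were higher with it, Cnga3 by 2.41 (SE 0.44, edgeR adjusted p = 0.0055) and Cngb3 by 1.93 (SE 0.39, edgeR adjusted p = 0.0103). These 3 of 10 members were called, all higher, against 1.89% of all genes called in either direction and 0.405% called higher. Pde6h (1.84), Opn1sw (1.25) and Gnb3 (0.50) were not called, although their 3 RWB libraries lay above all 3 SSCd libraries. With transcript counts summed Pde6h was higher by 0.97 there and was not called. With the called members this made 6 of 10 whose groups did not overlap with RWB higher, against 7.34% of all genes tested. Gngt2 (0.62), Arr3 (0.71) and Pde6c (0.12) overlapped between the cultures, and Pde6c turned to -0.09 or -0.25 without RWB replicate 1 or SSCd replicate 3.

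Within same-numbered libraries Gnat2 was higher in RWB by 2.55, 2.77 and 3.05, Cnga3 by 2.49, 2.54 and 2.04, and Cngb3 by 1.81, 1.88 and 2.29, differences of log2 CPM for replicates 1, 2 and 3. The replicate 1 libraries of both cultures are among the 4 of high mitochondrial share. Without those libraries Gnat2 and Cngb3 were still called and Cnga3 was not, at 2.36. Cngb3 also lost its call without RWB replicate 1 or 2 (1.61 to 2.18 over left-out libraries). A summed list of 5 rod-like markers ran the other way, from 595 to 781 CPM in RWB D22 and from 1099 to 3136 CPM in SSCd D22, and a photoreceptor-like list ran from 2672 to 3395 CPM and from 3293 to 6229 CPM. Their part in the cone gene differences was not tested.

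At D18 fewer genes were called between the same cultures. None of the 10 members was called between RWB and SSCd (0.488% of all genes were), and DESeq2 called none of them either. An unadjusted edgeR p under 0.05 was found for 2 members and for 1478 of the 16792 genes tested. Gnat2 differed by 0.25 (SE 0.48) and Cngb3 by 0.24 (SE 0.42), while Pde6h stood at -1.81 (SE 0.69), Arr3 at -1.21 (SE 0.47) and Opn1sw at -1.09 (SE 0.56). Groups did not overlap for 6 members, 5 of them lower in RWB, against 25.4% of all genes tested in either direction and 13.4% lower. RWB D18 had 2 libraries.

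The change from D18 to D22 was then compared between RWB and SSCd in 1 model. No gene of the 16792 was called by edgeR (525 had an unadjusted p under 0.05), so a different course of any member was not shown by this test. All 10 estimates were above 0, and 8 of the 10 members were among the 525: Pde6h (3.65, SE 0.91), Gnat2 (2.48, SE 0.67), Opn1sw (2.34, SE 0.73), Arr3 (1.92, SE 0.60), Cngb3 (1.69, SE 0.58), Cnga3 (1.62, SE 0.63), Gngt2 (1.52, SE 0.72) and Gnb3 (0.90, SE 0.32). DESeq2 called Pde6h in the same comparison, which falls to 2.17 with summed transcripts.

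Dissected cups were compared with intact organoids at the days they share. At D18, Gnat2 (2.08, edgeR adjusted p = 0.0295), Cngb3 (1.65, edgeR adjusted p = 0.0441) and Gnb3 (1.24, edgeR adjusted p = 0.00847) were higher in SSCd than in SSCi, 3 of 10 members against 3.86% of all genes called and 0.351% called higher. All members but Opn1mw, 9 of 10, were higher in SSCd without overlap, against 10.6% of all genes. RWB at D18 was higher than SSCi in Gnat2 (2.33, edgeR adjusted p = 0.0204) and Cngb3 (1.89, edgeR adjusted p = 0.0263), 2 of 10 against 5.23% called and 0.911% higher. These comparisons share the 2 SSCi D18 libraries, and calls changed with them: 0 to 2 members were called in SSCd against SSCi, and 0 to 2 in RWB against SSCi, when 1 library was left out. One SSCi D18 library carries the mesenchyme-like sum of 6196 CPM, whose part was not tested; without it neither comparison called a member.

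At D25 RWB was compared with SSCi, where the medium also differs, so rotation, dissection and serum cannot be told apart. Mean Gnat2 in RWB was 133 ± 82.8 CPM (SD, n = 3), beside 11.1 ± 0.846 CPM for SSCi (n = 2), higher by 3.58 (SE 0.57, edgeR adjusted p = 0.000777), a call that held in all 5 left-out fits. Pde6h (2.55, edgeR adjusted p = 0.0275), Arr3 (1.90, edgeR adjusted p = 0.0111) and Gnb3 (0.87, edgeR adjusted p = 0.0327) were also higher, calls that held in 2, 3 and 2 of 5 left-out fits in that order and were each lost without either SSCi library. This made 4 of 10 members against 8.68% of all genes called and 3.6% called higher. Cngb3 (1.30) and Cnga3 (1.19) were above SSCi in every library and were not called. Without the 4 libraries of high mitochondrial share Gnat2 and Arr3 were called and Pde6h (2.32) and Gnb3 (0.70) were not.

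Over time only a part of the members was called within each dissected culture. In RWB, from D18 to D25, 5 of 10 rose (Arr3, Opn1sw, Pde6h, Gngt2 and Gnb3), none fell, and 28.9% of all genes were called (14.9% higher). Gnat2 (0.99), Cngb3 (0.38), Pde6c (-0.19) and Cnga3 (-0.40) were not called over these days. The same 5 members were called higher by D22, where 10.9% of all genes were called and 6.01% were higher. In SSCd, from D18 to D28, Pde6c (-2.85), Gnat2 (-2.75), Cngb3 (-2.14) and Cnga3 (-1.36) fell and Gnb3 rose, 5 of 10 against 34.6% of all genes called in either direction. The median log2 change of the 10 members was 2.01 in RWB and -0.83 in SSCd, beside 0.06 and 0.02 over all genes tested, and the last days differ (D25 and D28).

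In SSCd the early step, D18 to D22, lowered Cnga3 (-1.87, edgeR adjusted p = 0.00691), Gnat2 (-1.42, edgeR adjusted p = 0.0404) and Cngb3 (-1.22, edgeR adjusted p = 0.0425) and raised Opn1sw and Gnb3, 5 of 10 against 12.4% of all genes. No left-out fit kept that count: each called 1 to 3 members, Cnga3 in all 6 and Gnat2 in none. Without the 4 libraries of high mitochondrial share no member was called there, with Gnat2 at -1.60, Cnga3 at -1.66 and Cngb3 at -1.19. From D22 to D28 Opn1sw and Pde6c (-1.93, edgeR adjusted p = 0.0155) fell, 2 of 10 against 8.05% of all genes called and 5.05% lower. With replicate number as a block 4 were called, Gnat2 (-1.28) and Cngb3 (-0.83) with them. With only the compared libraries 0 were called, without the libraries of high mitochondrial share 1, and in left-out fits 0 to 4.

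In SSCi, from D18 to D25, Opn1sw, Gngt2, Arr3 (2.46, edgeR adjusted p = 0.00195) and Gnb3 (2.00, edgeR adjusted p = 5.56e-05) rose, 4 of 10 against 19.8% of all genes called and 8.89% higher. Gnat2 was not called, at 13.3 ± 5.19 CPM (SD, n = 2) and 11.1 ± 0.846 CPM (n = 2). From D25 to D32 Opn1sw and Cngb3 (-1.76, edgeR adjusted p = 0.0128) fell, 2 of 10 against 8.25% called and 4.54% lower. SSCi received serum, B27 and amino acids from D26, so in every SSCi change up to D32 time and medium cannot be told apart. From first to last day Arr3, Gnb3, Opn1sw and Opn1mw rose and Pde6c fell, 5 of 10 against 36.7% of all genes called. A sum of 7 progenitor-like markers was lower at the last day than at D18 in every culture: 2256 to 2402 CPM and then 128 to 234 CPM in RWB, 1654 to 2968 CPM and then 242 to 290 CPM in SSCd, 2727 to 3493 CPM and then 307 to 373 CPM in SSCi. Their part in the changes over time was not tested.

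**Figure D3:**
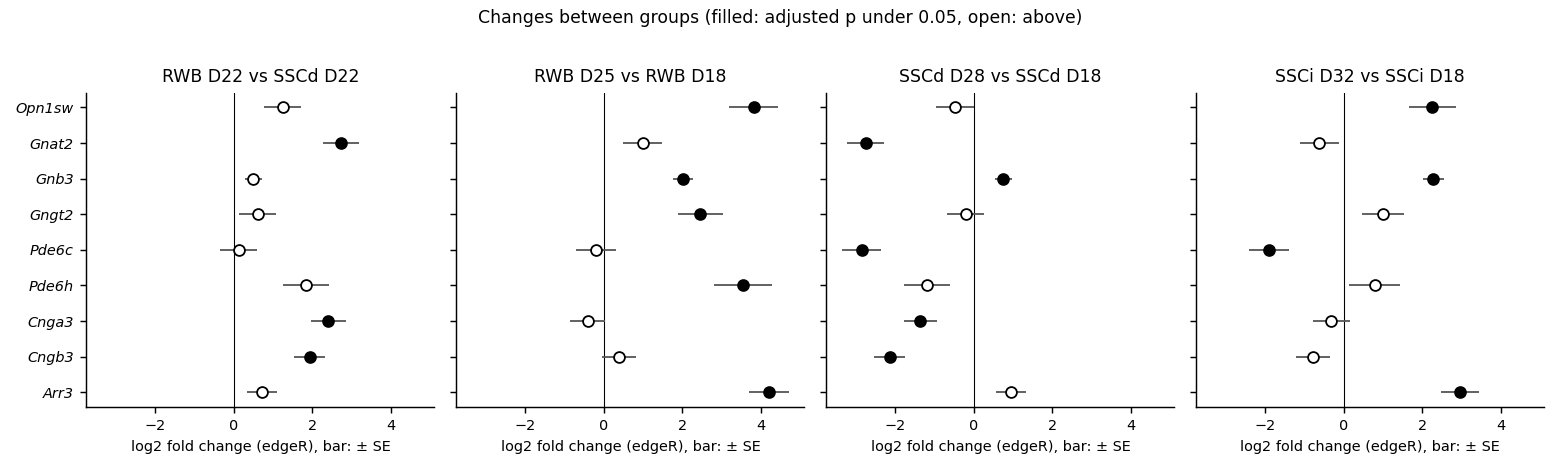
Log2 fold change (horizontal axis) of 9 members in 4 comparisons, with bars of 1 standard error from edgeR; filled points have an adjusted p under 0.05 and open points do not (Opn1mw, with too few counts for a fold, is left out). Gnat2, Cnga3 and Cngb3 are filled on the right for RWB against SSCd at D22 and on the left for SSCd D28 against D18.

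The 8 members that act after the opsins were each set against the gene listed for the same place in the rod cascade. The measure was the difference of log2 CPM within a library. Pde6c was set against both Pde6a and Pde6b, which makes 9 pairs. Gnb1, the counterpart of Gnb3, already averaged 382 CPM in RWB, 344 CPM in SSCd and 396 CPM in SSCi at D18. Gnat1, the counterpart of Gnat2, averaged 3.68, 2.81 and 2.09 CPM there. The pair with Gnb1 is thus not a plain contrast of cone and rod. How far the other counterparts are limited to rods was not tested. The 9 rod counterparts were all called higher at the last day than at the first in each culture. Their median log2 change was 5.79 in RWB, 5.86 in SSCd and 8.71 in SSCi. Of all genes, 28.9%, 34.6% and 36.7% were called in either direction over those days. Gnat2 minus Gnat1, the rod transducin alpha subunit, averaged 4.09, 4.47 and 1.74 in RWB at D18, D22 and D25. In SSCd it averaged 4.29, 1.30 and -3.20 at D18, D22 and D28, and in SSCi 2.82, 1.34 and -3.74 at D18, D25 and D32. At D22 the RWB libraries lay between 4.35 and 4.55 and the SSCd libraries between 0.91 and 1.82.

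Cngb3 minus Cngb1, the rod channel's beta subunit, averaged 0.09 in RWB D22 (0.06 to 0.14) and -1.83 in SSCd D22 (-2.65 to -1.36). These differences are not per length, so their sign does not rank the genes: in TPM the RWB D22 means were 39.4 for Cngb3 and 48.8 for Cngb1. Of 9 such pairs 7 were higher in RWB D22 than in SSCd D22 without overlap, none was lower, and 6 were higher with summed transcripts. No share over pairs of other genes was computed for any of these counts. Among the rod counterparts themselves at D22, Pde6b was the only 1 of 9 called (-2.51, edgeR adjusted p = 0.00375), against 1.89% of all genes. At D18 the counts were 2 higher and 2 lower of 9. From first to last day the difference was lower without overlap for 8 of 9 pairs in RWB, 9 of 9 in SSCd and 8 of 9 in SSCi. With a prior count of 0.5 these numbers were the same. Some rod genes were near 0 at D18, with Cnga1 at 0.10 CPM in RWB and Pde6a at 0.03 CPM in SSCi. Each difference holds the rise of its rod counterpart, so these counts do not describe the cone members alone. At the last static days Cngb3 minus Cngb1 averaged -4.66 in SSCd and -5.46 in SSCi.

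**Figure D4:**
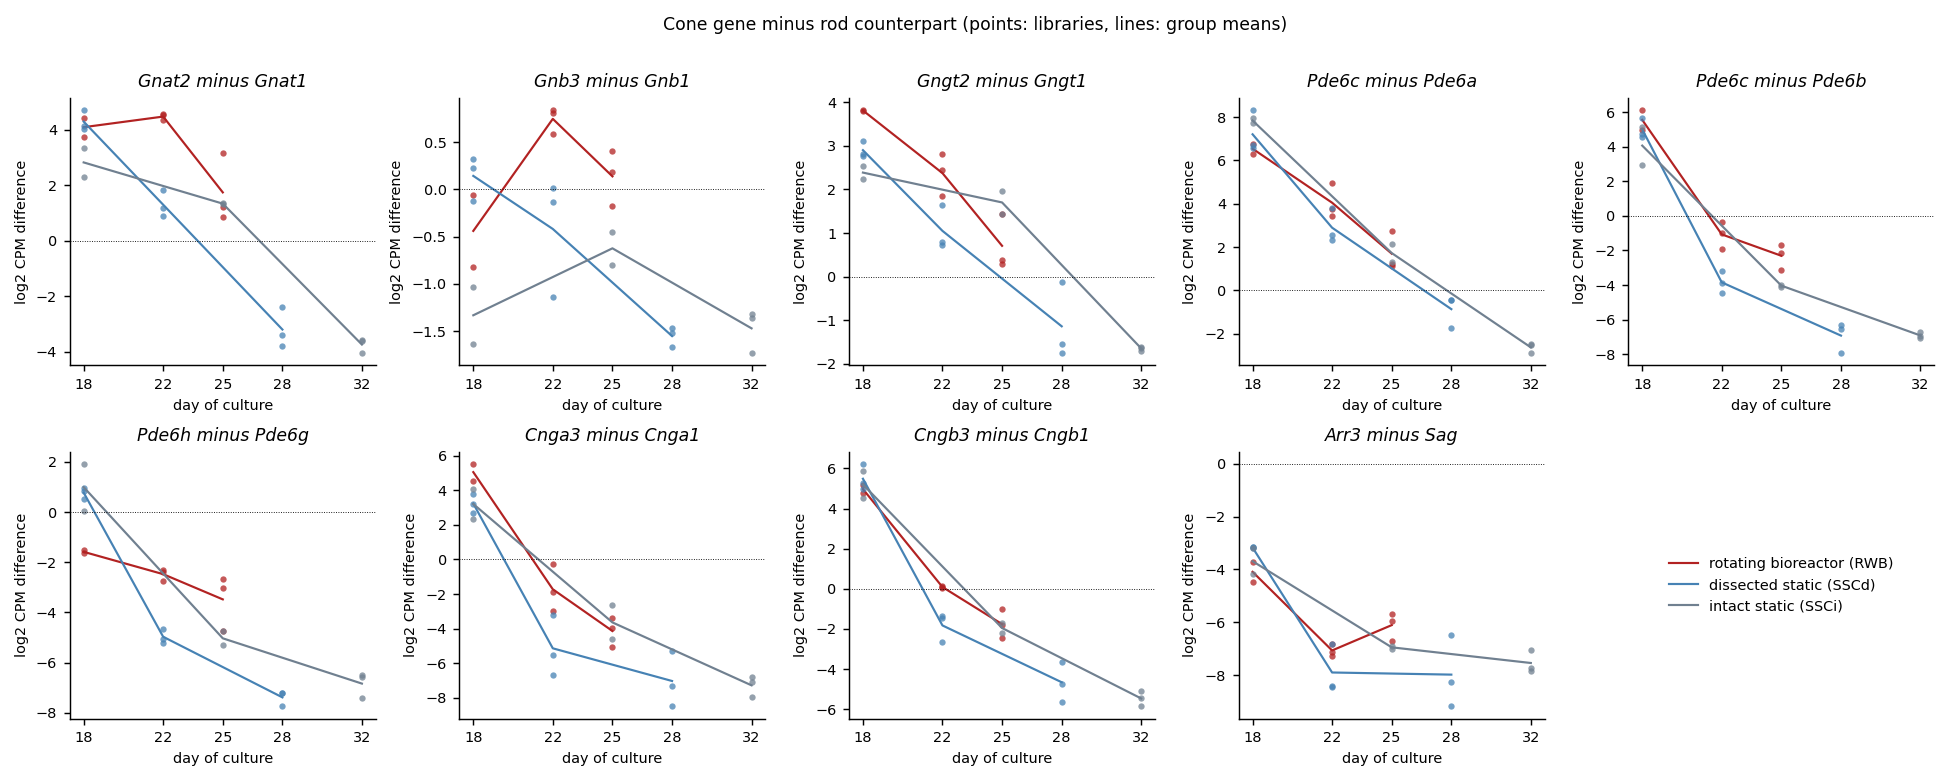
Difference of log2 CPM between each of 8 cone genes and its rod counterpart (vertical axis, own scale in each panel, dotted line at 0) against day of culture, with points for libraries and lines through group means. Pde6c has a panel for each of Pde6a and Pde6b. At D22 RWB lies above SSCd in 7 of 9 panels without overlap, for example Gnat2 minus Gnat1 at 4.47 against 1.30. No share over pairs of other genes was computed.

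Genes that recover the light response or serve the visual cycle in both photoreceptor types were read from a list of 20. Between RWB and SSCd at D22, 1 was higher and 5 were lower, against 1.89% of all genes called and 0.405% higher. The guanylate cyclase activator Guca1a was higher in RWB by 2.54 (edgeR adjusted p = 0.0129). The cyclase Gucy2e (-2.82, edgeR adjusted p = 0.000316), the retinol dehydrogenase Rdh8 (-1.84, edgeR adjusted p = 0.00347) and the potassium channel subunit Kcnv2 (-1.40, edgeR adjusted p = 0.0090) were lower, as were Abca4 and Rgs9bp. From first to last day 20 of 20 rose in RWB, 18 in SSCd and 18 in SSCi, and none fell, against 28.9%, 34.6% and 36.7% of all genes called in either direction. Their median log2 change over those days was 3.77, 3.67 and 4.86, so in SSCd the list rose while Gnat2, Pde6c and both channel subunits fell.

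Transcription factors tied to cone development were read from a list of 12. Between RWB and SSCd at D22, Sall3, a zinc finger factor linked to cone opsin expression, was higher by 3.40 (SE 0.42, edgeR adjusted p = 0.000378), and Onecut1 was lower by 1.27 on the log2 scale (-1.27, edgeR adjusted p = 0.0241). The other 10 were not called, among them the thyroid hormone receptor Thrb (0.11) and the photoreceptor factor Crx (-0.26). Of all genes, 1.89% were called there and 0.405% were called higher. Sall3 fell in SSCd from D18 to D22 by 2.49 (SE 0.41, edgeR adjusted p = 0.000433). Over those days Gnat2, Cnga3 and Cngb3 fell there, while Opn1sw and Gnb3 rose. A link between Sall3 and these members was not tested. In RWB Sall3 was not called over those days, at 0.78, and at D25 it was higher in RWB than in SSCi by 2.30 (SE 0.46, edgeR adjusted p = 0.00431). From first to last day 3 of the 12 were called higher in each culture, and 3 were called lower in RWB, 6 in SSCd and 4 in SSCi. Of all genes, 28.9%, 34.6% and 36.7% were called in either direction over those days. Among the factors, Onecut1 and Nr2f1 fell and Crx and Rora rose in all 3 cultures.

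Likeness of pattern was measured as Pearson's r over the 9 group means of log2 CPM, among 13162 genes, and is given as a description because the groups share libraries' scaling and days. Gnat2 was most like Cngb3 among the members (r = 0.94) and then Cnga3 (0.85). Gnb3 was most like Arr3 (0.96), and Opn1sw was most like Gngt2 (0.94). Gnat2 and Arr3 had an r of 0.19, and Gnb3 and Pde6c one of -0.25. Outside the cascade the nearest gene was Matr3 for Gnat2 (0.99), Nnat for Cngb3 (0.98), Prpf4 for Cnga3 (0.99), Gipc1 for Pde6c (0.98), Wdr66 for Gnb3 (0.99), Zranb1 for Arr3 (0.98), Morn4 for Gngt2 (0.98), Wdr45 for Opn1sw (0.97), Zfp511 for Pde6h (0.96) and Col9a1 for Opn1mw (0.89).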

How the data were processed

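Titles gave each library's culture, day and replicate number, and the series' design text calls repeated experiments biological replicates. Per the submitters' processing notes, the tools were kallisto 0.42.5, limma 3.32.2 and edgeR 3.13.9, on the build GRCm38.p5. The authors deposited estimated counts per gene and per transcript, and a normalized table, here treated as a score, that was used only as a check. How transcripts were combined, and on which annotation release, is not given in the sources used here.

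Estimated counts were rounded, filtered with filterByExpr and scaled by TMM. A robust quasi-likelihood fit of 9 group means over all 24 libraries (edgeR 4.0.16, R 4.3.3) gave each F-test, with Benjamini-Hochberg adjustment over 16792 genes. The median biological coefficient of variation was 0.256. CPM are TMM-scaled, and log2 CPM carry a prior count of 2. Replicates spread 10.3 to 273 times as widely as counting variance alone. TPM used lengths from GENCODE M21. Every member is named. The design fixed a further gene of the rod lists, which is not reported here. Motifs were searched by exact match. Genes with near-identical copies or opposite-strand overlaps are uncertain.

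The members and lists were chosen with earlier results of these data known. Same-numbered libraries deviated together in every one of 3 pairs (correlation over 0.1) between RWB D22 and SSCd D22 (0.61, 0.38 and 0.58), RWB D22 and D25, SSCd D18 and D22, and SSCd D22 and D28, so replicate number was tried there as a block. The labels do not say what same-numbered libraries have in common. Alternatives were that block, DESeq2 1.42.0, no filter, only the libraries compared, a prior count of 0.5, and leaving out each library or the 4 of high mitochondrial share. A block in 5 groups, a crossed block and summed transcripts were added after seeing the data.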

Additional observations from a re-analysis of the deposited data

How the results depend on the processing

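Of 46 called member results, 21 kept their call in every fit that left out 1 library, and none reversed. Left-out fits called these numbers of members: 2 to 3 for RWB against SSCd at D22, 0 to 0 at D18, 0 to 2 for SSCd and for RWB against SSCi at D18, 1 to 5 for RWB against SSCi at D25. Over time they called 2 to 5, 0 to 1 and 4 to 5 in RWB (D18 to D22, D22 to D25, D18 to D25), 1 to 3, 0 to 4 and 5 to 6 in SSCd (D18 to D22, D22 to D28, D18 to D28), 3 to 4, 1 to 2 and 3 to 5 in SSCi (D18 to D25, D25 to D32, D18 to D32), and 0 to 0 for the difference in change.

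With only the compared libraries fitted, members called were 0 for SSCd against SSCi at D18, 0 for RWB against SSCi at D18, 1 for RWB against SSCi at D25, 0 for RWB D25 against D22, 0 for SSCd D28 against D22 and 5 for SSCi D32 against D25. DESeq2 called 5, 4 and 4 for SSCd against SSCi at D18, RWB against SSCi at D18 and SSCi D32 against D25, and 1, Pde6h, for the difference in change. Without a filter 1 was called for SSCd against SSCi at D18 and 2 for SSCd D22 against D18. Without the libraries of high mitochondrial share 1, 2, 0 and 1 were called for SSCd against SSCi at D18, RWB against SSCi at D25, SSCd D22 against D18 and SSCd D28 against D22. With a replicate block, in all groups or in 5, SSCd D28 against D22 called 4; among pairs that passed the check it changed no other call. Elsewhere it called Gngt2 (1.82 for SSCd against SSCi at D18, -1.49 for SSCi D32 against D25), Cngb3 (1.48 for RWB against SSCi at D25) and Gnat2 (1.26 for RWB D22 against D18). RWB D18 and SSCi D18 deviated oppositely (-0.31), and the crossed block called 2 members, as many as the block by number. The cause of these shifts was not tested. The share of all genes called is not given for these alternative and left-out fits, so their counts do not set the members apart from other genes.

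Uncalled values that changed sign were Pde6c for RWB against SSCd at D22 (-0.09 and -0.25, up to 0.38 in left-out fits), Opn1sw for RWB against SSCi at D25 (-0.03 without RWB replicate 2, -0.13 without 3, up to 0.28), Pde6c for RWB D22 against D18 (0.019 with the replicate block, and -0.34 to 0.11 in left-out fits, above 0 without RWB D18 replicate 2) and Cnga3 there (-0.52 to 0.065, above 0 without RWB D18 replicate 1). Groups of 2 or 3 libraries limit all of these, and Opn1mw lies near the counting floor outside SSCi D32.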
